A study of Mus musculus with 10 samples.

Results

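The response of the mouse colorectum to local irradiation was described for animals with an intact Pdgfc gene (wild type), on 5 of the 10 arrays of the series. These were the 3 arrays labelled as irradiated and the 2 labelled as unirradiated wild type, chosen by the genotype and treatment in their labels. Each Affymetrix array held 45101 probe sets. A gene was represented by its brightest probe set among those with 1 gene in the platform annotation, which gave 18193 genes, and 12568 of them exceeded the median of the array on 2 or more arrays and were tested. All mice were C57BL/6J and were kept without specific pathogens. The irradiated animals were anaesthetised with chloral hydrate and received 25 Gy of local γ-rays at 2.14 Gy/min. Tissue from both groups was collected 8 weeks later, about 1 cm above the anus. The unirradiated animals carry the treatment label "none", and whether they were anaesthetised is not stated. Age, sex and time of day are not in the labels. The other 5 arrays, of Pdgfc knockout tissue with and without the same irradiation, entered the fit and served for comparison.

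The distal colorectum is lined by absorptive colonocytes and mucus-secreting goblet cells that are renewed from crypt stem cells and that recover salt and water from the gut contents. It ends at the anal canal, where this simple epithelium gives way to stratified squamous epithelium and then to skin over striated sphincter muscle. A high local radiation dose injures crypts and vessels, and weeks later such tissue is known for inflammation, scarring and altered epithelium.

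Values are log2 MAS5 signals, so a difference of 1 is a 2-fold change; all errors of differences are standard errors (SE) from the limma fit. Over all genes the correlation within a group ran from 0.921 to 0.944, and between groups from 0.879 to 0.909; genes are not independent replicates. Colonic identity was borne out on all 5 arrays by the posterior homeobox genes Hoxb13 (11.73 to 13.04) and Hoxd13 and by the simple keratin Krt8 (15.03 to 15.62). The sex transcripts differed between the groups. Xist, made from the inactive X of females, lay at 6.52 and 6.19 on the unirradiated arrays and at 13.81, 14.18 and 14.15 on the irradiated ones, and the Y-linked Eif2s3y ran the opposite way (10.89 and 11.06 against -0.44, 3.42 and -0.12). Sex and irradiation cannot be told apart in wild type. Of 5 genes of male accessory glands and the female tract that were tested, 1 was higher (the oestrogen receptor Esr1, at 2.56) and 1 lower (Pax8, at -1.48), neither of them without unirradiated replicate 1, and the mean over all 11 measured was 5.23 and 5.94 against 5.05, 5.57 and 5.15. Because of the sex patterns, list medians and many genes are set beside the same difference in knockout arrays of the male pattern (irradiated replicates 2 and 3 against unirradiated replicates 1 and 2), which share no sample with the wild-type arrays. The 3′ minus 5′ difference of control probes follows RNA integrity. For Gapdh it was 0.02 and -0.32 on the unirradiated and -0.41, -0.44 and -0.54 on the irradiated arrays. For Actb it was 0.66 and 0.35 against 0.44, 0.52 and 0.58, so the groups overlapped. The part of RNA integrity in the results was not tested. With so few arrays the precision is limited, and p-values measure only the spread between these arrays. In bulk tissue, more cells of a type and more RNA per cell cannot be told apart.

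Irradiated and unirradiated wild-type arrays differed at an adjusted p under 0.05 (limma, Benjamini-Hochberg) for 3028 of 12568 genes, or 24.1%. Of these, 1980 genes (15.8%) were higher and 1048 (8.34%) lower in irradiated tissue, and the median log2 difference over all genes tested was 0.07. The groups did not overlap for 53.6% of the genes tested. The called differences were unequal in size: the median was 1.49 among genes called higher and -0.86 among those called lower. Among the genes called higher, 1200 of 1980 had an unirradiated mean above the array median, against 1020 of 1048 genes called lower whose irradiated mean was above it. MAS5 values of dim genes are imprecise. Of the genes tested, 883 lay above the array median on no unirradiated array of either genotype, so the sizes of their rises are uncertain. These genes entered the test through irradiated arrays alone. Counts of rises in lists that hold many of them are thus partly set by the filter. In knockout arrays of the male pattern, 1844 of the 1980 genes higher in wild type and 965 of the 1048 lower genes had the same sign (93.1% and 92.1%, against 71.5% of all genes tested). Their median differences there were 1.04 and -0.56. The count of called genes was 1327 without unirradiated replicate 1 and 1793 without irradiated replicate 2. Of the gene lists examined, 30 had calls both ways with fewer in one direction; in 21 of them the smaller direction had no call left when some 1 wild-type array was left out. With the sex pattern as a covariate, which rests on a single female-pattern knockout array, 16 genes were called, at most 3 of them in any list below, and 3025 of the 3028 kept their sign.

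**Figure D1:**
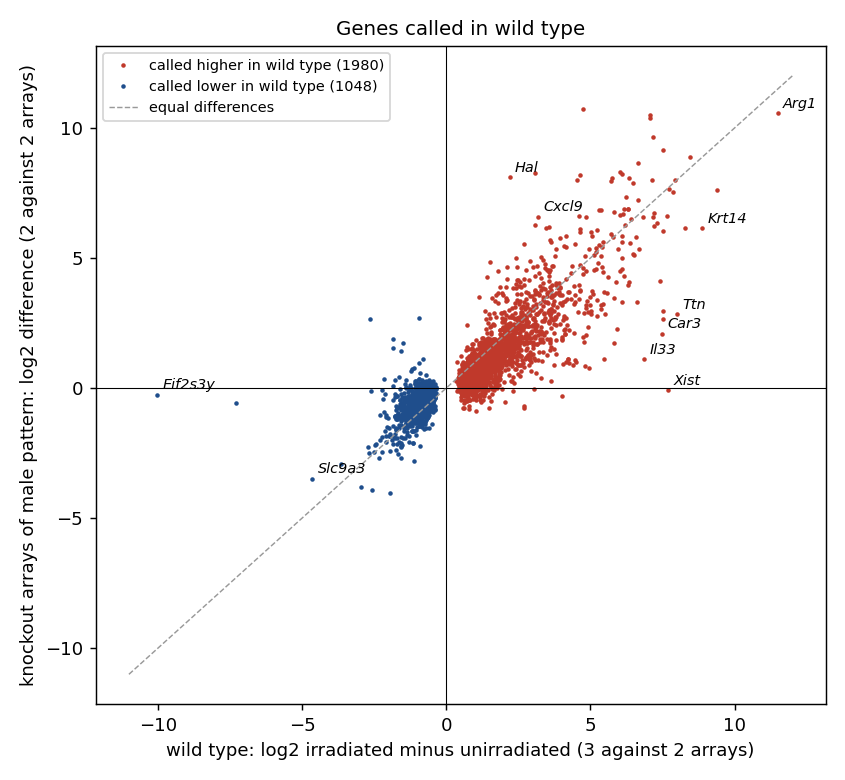
Each point is a gene called in wild type; the x axis gives its log2 difference between irradiated and unirradiated wild-type arrays and the y axis the same difference between the knockout arrays of the male sex pattern. Most points share their sign on both axes (93.1% of the higher and 92.1% of the lower genes), while Xist and Eif2s3y lie near 0 on the y axis.

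The irradiated arrays differed among themselves in transcripts of skin, hair and striated muscle. Genes of epidermal terminal differentiation were present on irradiated replicates 1 and 2 and not on replicate 3. Krt1, a keratin of the upper epidermis, lay at 13.05 and 11.12 on replicates 1 and 2, at 2.65 on replicate 3, and at 2.93 and 3.67 without irradiation. Krt10, its partner, lay at 13.99, 12.79 and 8.21 against 7.71 and 8.17, and filaggrin (Flg) at 12.34, 9.43 and 4.37 against 4.35 and 3.25. Replicate 3 thus lay at or near the unirradiated level for all 3 genes, and none of them passed the test (limma adjusted p of 0.13, 0.066 and 0.066). The mean over 10 such genes, a list set up after their values were seen, was 11.56, 10.22 and 4.95 on irradiated replicates 1 to 3 and 4.75 and 5.00 without irradiation. In knockout this mean lay at 10.31 to 11.99 on all 3 irradiated arrays.

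Hair follicle transcripts stood out on irradiated replicate 2. The inner root sheath keratin Krt25 lay at 7.32, 11.64 and 1.27 on irradiated replicates 1 to 3 and at 0.7 and 2.81 without irradiation, and Krt27 at 6.01, 10.51 and 4.48 against 3.22 and 2.92. The mean over all 18 measured hair follicle genes was 5.38, 8.59 and 4.28 against 3.89 and 4.45. Of these 18 genes 6 were tested, and only Tchh (trichohyalin, of the root sheath) was called higher, a call lost under quantile normalization and without unirradiated replicate 1 or 2 or irradiated replicate 1 or 2. Striated muscle transcripts marked replicates 1 and 2. Skeletal actin Acta1 lay at 14.28, 13.25 and 8.9 against 7.87 and 8.11, and the giant sarcomere protein titin (Ttn) at 12.83, 10.67 and 4.76 against 1.76 and 1.06. The mean over 29 striated muscle genes was 10.62, 8.80 and 5.42 against 5.35 and 5.51; 7 of 27 tested were called higher and 1, Tnni1, lower, a fall lost without any 1 wild-type array. Without irradiated replicate 3, 19 were called higher, without unirradiated replicate 1, 2, without unirradiated replicate 2 or irradiated replicate 2, 4, and with replicate 3 as the only irradiated array, 3. In knockout the striated muscle mean was 8.46 and 8.0 even without irradiation. Melanocyte genes showed no such split, with a mean of 4.94 to 5.56 on all 5 arrays and 2 of 8 genes tested. The part of these transcripts in the other differences was not tested, but values with replicate 3 as the only irradiated array are given below. That fit was chosen after seeing the data and rests on a single irradiated array. Of the 3028 genes, 2993 could be tested in it, and all 2993 kept their sign. It shares this array and both unirradiated arrays with the main fit, so agreement in sign was largely built in. On irradiated replicate 3, 11228 of all 12568 genes tested had the sign of their wild-type difference.

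**Figure D2:**
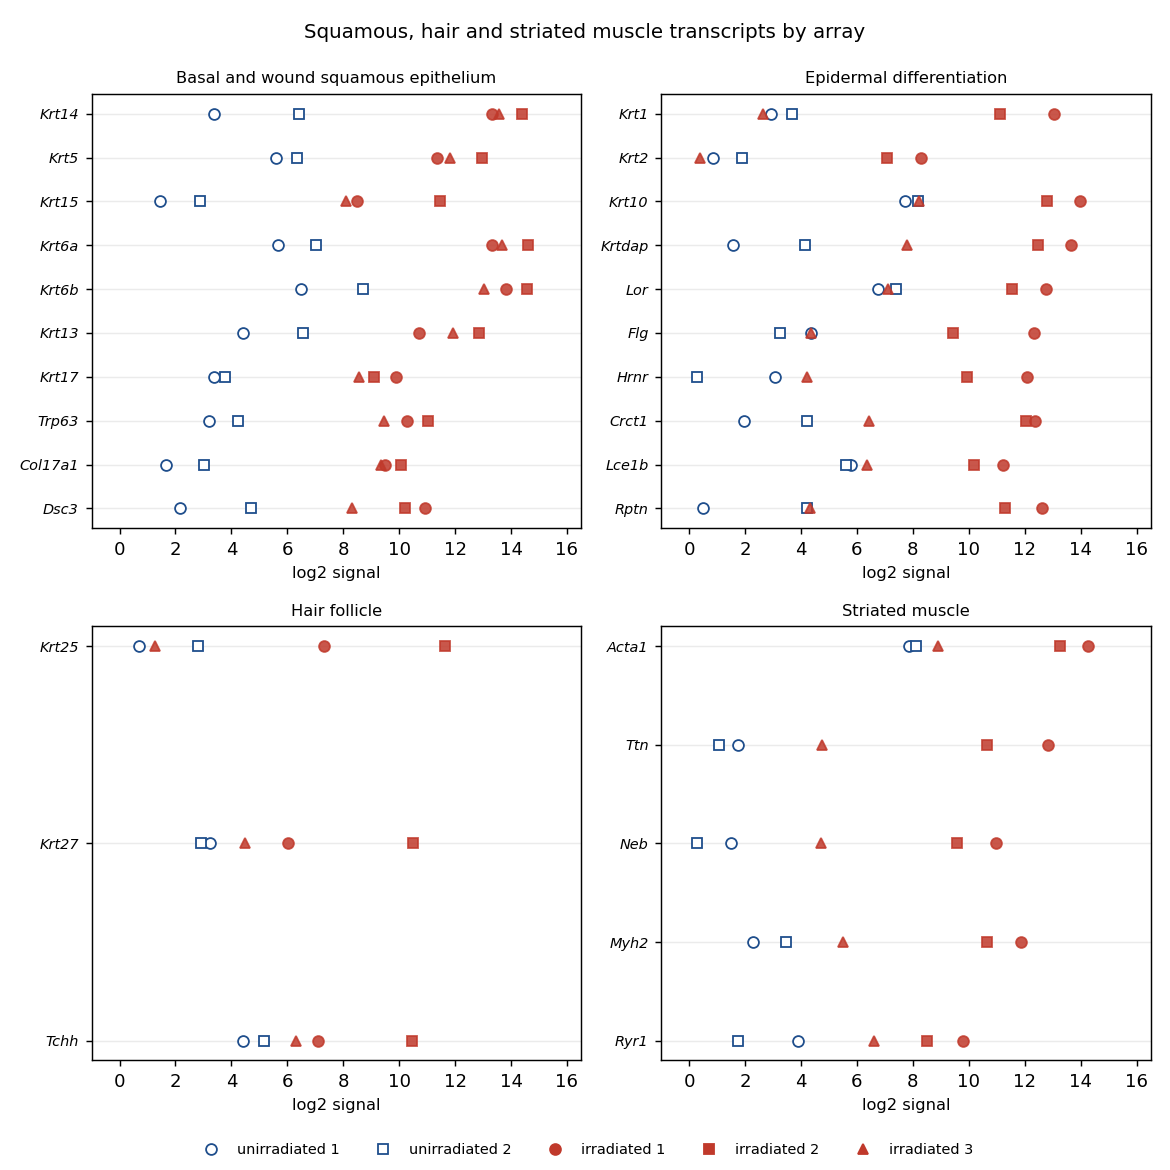
Log2 signals on the 2 unirradiated (open) and 3 irradiated (filled) wild-type arrays, with 1 row per gene and the marker shape giving the replicate. Basal and wound keratins lie high on all 3 irradiated arrays (Krt14 at 13.31 to 14.39), whereas epidermal differentiation and striated muscle genes lie high on irradiated replicates 1 and 2 (Krt1 at 13.05 and 11.12, against 2.65 on replicate 3) and hair keratins highest on replicate 2.

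Keratins and regulators of basal squamous epithelium rose on all 3 irradiated arrays. Of 15 stratified epithelial keratins tested, 10 were called higher and 0 lower, with a median log2 difference of 5.62 (5.30 in male-pattern knockout arrays). Among the 15, 9 lay above the array median on no unirradiated array of either genotype. Krt14, the keratin of basal cells, lay at 3.39 and 6.41 without irradiation and at 13.31, 14.39 and 13.57 after it. Its partner Krt5 went from 5.59 and 6.34 to 11.36, 12.96 and 11.83, and the wound-induced keratin Krt6a from 5.68 and 7.04 to 13.32, 14.6 and 13.67. The groups were far apart for all 3 genes, by 8.86 ± 0.80, 6.09 ± 0.60 and 7.50 ± 0.60 (SE; adjusted p 0.0003, 0.00036 and 0.00021), although Krt14 and Krt5 were below the array median without irradiation; near-identical Krt6a and Krt6b can share signal. The oesophageal and anal keratin Krt13 rose by 6.33 and the follicle and basal keratin Krt15 by 7.21. With only irradiated replicate 3 kept, 9 of the 15 were still called higher, with a median of 4.11.

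Trp63, the transcription factor that maintains squamous progenitors, rose from 3.21 and 4.25 to 10.27, 11.02 and 9.46. Among 13 squamous transcription factors tested, 6 lay above the array median on no unirradiated array of either genotype. Rises were called in 7 of the 13 and falls in 0 (median 1.79). The rises included Sox2 at 3.12, Grhl1 at 3.03, Tfap2a at 2.34 and the hindlimb and perineal factor Pitx1 at 2.05. That count fell to 1 without unirradiated replicate 1, 4 without unirradiated replicate 2, 3 without irradiated replicate 2, and 2 with irradiated replicate 3 alone. Col17a1, a collagen of the hemidesmosomes that anchor basal keratinocytes, rose by 7.30 ± 0.67 and the squamous desmosomal cadherin Dsc3 by 6.39 ± 0.99. Within the same junctions some components shared with colonocytes were called lower. In hemidesmosomes Plec fell by 1.21, with Itgb4 at -0.74, Lamb3 at -0.67 and Itga6 at -0.58 (3 of 9 higher, 4 lower, 2 not called). In desmosomes Pkp2 was at -1.14, Pkp3 at -0.97, Dsg2 at -0.72 and Jup at -0.68 (2 of 15 higher, 4 lower, 9 not called). Of the 4 hemidesmosome falls, 1 was left without unirradiated replicate 2 or irradiated replicate 2, or with irradiated replicate 3 alone. Of the hemidesmosome and desmosome rises, 1 each was left without unirradiated replicate 1 or with irradiated replicate 3 alone. The desmosome median was 0.10 and turned to -0.25 with the sex covariate and -0.39 on irradiated replicate 3.

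Cornified envelope genes, which build the tough outer layer of squamous cells, rose in 13 of 27 and fell in 0 (median 3.94; 5.84 in male-pattern knockout arrays). Of the 27, 19 lay above the array median on no unirradiated array of either genotype. The list median was 5.76, 5.00 and 1.20 on irradiated replicates 1, 2 and 3 relative to the unirradiated mean. Krtdap, of differentiating keratinocytes, went from 1.56 and 4.13 to 13.66, 12.46 and 7.80, and Hrnr from 3.08 and 0.27 to 12.1, 9.92 and 4.21. Ly6d, a surface protein of squamous cells, was high on all 3 irradiated arrays (12.73, 13.94 and 13.3 against 9.65 and 9.84), as was Sprr2d, a member of a family of near-identical genes (10.02, 14.21 and 12.72 against 3.88 and 7.44). The count of rises was 24 without irradiated replicate 3, 7 without unirradiated replicate 1, and 6 with replicate 3 as the only irradiated array.

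Genes with which colonocytes recover salt and water were lower in irradiated tissue. Of 29 transport genes tested, 18 were called lower and 1 higher, with a median of -0.98 (all genes, 0.07; male-pattern knockout arrays, -0.89). The apical sodium-proton exchanger Slc9a3 lay at 11.88 and 11.67 without irradiation and at 7.42, 5.9 and 8.08 after it, so it fell by 4.64 ± 0.67 (limma adjusted p = 0.0017). Its chloride-bicarbonate partner Slc26a3 fell from 15.04 and 14.72 to 12.4, 12.07 and 12.63, and the water channel Aqp8 from 13.87 and 14.01 to 11.08, 11.23 and 11.37. Each of these 3 transporters was lower on every irradiated array than on both unirradiated arrays, as were 22.8% of all genes tested.

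The aldosterone pathway, which drives sodium uptake in the distal colon, was lower at several steps. The mineralocorticoid receptor Nr3c2 went from 11.43 and 10.98 to 9.64, 9.29 and 9.39, and Hsd11b2, the enzyme that keeps cortisol-like steroids off this receptor, from 12.58 and 11.87 to 10.85, 11.17 and 10.85. Their target kinase Sgk1 fell by 1.51 ± 0.39, the channel-activating protease Prss8 had -0.88 and the epithelial sodium channel subunit Scnn1g -2.57 ± 0.72. The subunits Scnn1a (-0.78) and Scnn1b (-0.41) did not pass the test. Chloride secretion genes were lower as well, with Cftr at -0.93, Best2 at -1.30, Kcnq1 at -0.98 and Kcnn4 at -1.06, whereas the loading cotransporter Slc12a2 (-0.19) was not called. The single rise was Atp1b3, a sodium pump subunit, at 1.19 ± 0.25, beside a fall of 0.86 in its counterpart Atp1b1; with irradiated replicate 3 alone that rise was not called. Aqp4, which fell by 1.56 ± 0.47 in wild type, was higher in male-pattern knockout arrays (1.42). The count of falls was 6 without unirradiated replicate 1 (median -0.92) and 7 with irradiated replicate 3 alone (median -0.88).

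Colonocyte identity genes moved less. Intestinal transcription factors fell in 5 of 17 and rose in 0, with a median of -0.72: Cdx1, which specifies intestinal epithelium, fell by 1.73 ± 0.25, Hnf4a by 1.17, Klf4 by 1.02, the goblet cell factor Spdef had -0.79 and Foxa1 -0.50. Krt20, the keratin of mature surface colonocytes, fell from 14.44 and 14.18 to 13.21, 12.76 and 12.93, while Krt8 (-0.32) and Krt19 (-0.63) did not pass the test. Tight junction genes were lower for 6 of 18, among them Crb3, Cgn, Cldn3 and Cldn23 at -1.43 to -1.08, and higher for 2, the barrier claudin Cldn1 at 2.11 and Cldn4 at 1.48. Neither rise was called without unirradiated replicate 1, without irradiated replicate 2 or with irradiated replicate 3 alone. Leaving out unirradiated replicate 1 left 2 factors and 3 junction genes lower. With only irradiated replicate 3 those counts were 2 and 3; without irradiated replicate 1 or 2, 3 factors were lower. Crypt stem cell genes rose in 5 of 15 and fell in 1 (median 0.59). That is 33.3% and 6.7%, against 15.8% and 8.34% of all genes tested. Lgr5, the receptor that marks crypt stem cells, lay at 6.29 and 6.47 against 8.11, 7.92 and 8.24, a difference of 1.71 ± 0.37, but was 0.08 in male-pattern knockout arrays. Olfm4 went from 4.95 and 3.72 to 6.53, 8.45 and 8.9, and Cd44 rose by 2.04 ± 0.35, while the Wnt antagonist Rnf43 fell by 0.97, a call lost without any 1 wild-type array and with irradiated replicate 3 alone. Clu, a marker of regenerating crypt cells, rose by 3.74 ± 0.54 (9.08 and 8.8 against 12.9, 11.51 and 13.61). The 5 stem cell rises became 3 without unirradiated replicate 1 or irradiated replicate 2 or 3, and 2 with irradiated replicate 3 alone.

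**Figure D3:**
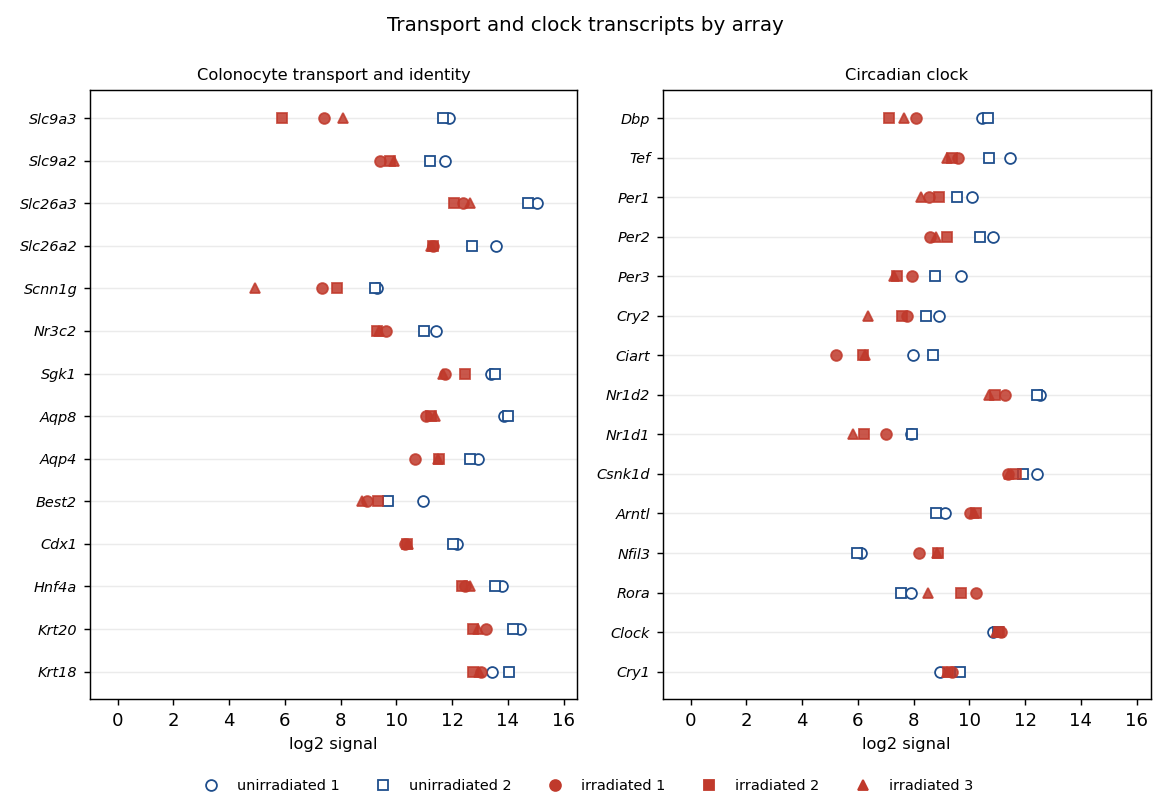
Log2 signals of colonocyte transport and identity genes (left) and circadian clock genes (right) on the 2 unirradiated (open) and 3 irradiated (filled) wild-type arrays. The irradiated arrays lie to the left for the transporters, for Dbp and for the Per genes, and to the right for Arntl, Nfil3 and Rora, while Clock and Cry1 overlap.

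The clock genes that were called separated into an arm that fell and an arm that rose. In the circadian clock, Arntl and Clock drive transcription through E-boxes in promoters; the products of their targets Per and Cry feed back on them, and Dbp, Tef and Hlf act with their rival Nfil3 at D-boxes. Of 19 clock genes tested, 9 were called lower and 3 higher (median -0.69; -0.54 in male-pattern knockout arrays). Dbp lay at 10.47 and 10.66 without irradiation and at 8.07, 7.11 and 7.67 after it, and fell by 2.95 ± 0.54 (adjusted p = 0.0049). Tef fell by 1.69 ± 0.26, Per2 by 1.75 ± 0.45, Per3 by 1.67 ± 0.33, Per1 by 1.24 ± 0.35, Cry2 by 1.45 and the repressor Ciart by 2.43. Nr1d2, a receptor that represses Arntl, fell from 12.53 and 12.43 to 11.28, 10.91 and 10.69.

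The rising arm held the activator and 2 regulators. Arntl lay at 9.14 and 8.8 against 10.02, 10.22 and 10.18, a rise of 1.17 ± 0.20. Nfil3 went from 6.12 and 5.95 to 8.19, 8.87 and 8.84, and Rora, which activates Arntl, rose by 1.77 ± 0.45. The groups did not overlap for any of these 3, nor for 53.6% of all genes tested. Clock (0.13) and Cry1 (-0.03) did not pass the test, nor did Npas2, Nr1d1, Hlf, Bhlhe40 and Csnk1e. All 12 called genes had the same sign in male-pattern knockout arrays, with Dbp at -3.82 and Nfil3 at 3.87. So had 92.8% of all genes called in wild type. The mice were kept on a 12-hour light/dark cycle, and the hour of tissue collection in each group is not in the labels, so its part in these differences was not tested. Without unirradiated replicate 1, 4 were lower, and with irradiated replicate 3 alone 5.

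Promoter sequence was searched for both elements in the 250 bases before each start site, from RefSeq on GRCm38.p6. The E-box letters were CACGTG and the D-box letters TTATGNAA, each on both strands. Of 32851 promoter entries, 6.02% held the E-box and 3.07% the D-box. Of 16 clock genes with an entry, 4 held an E-box (Per1, Tef, Ciart and Cry1) and 2 a D-box (Per1 and Per3). Among the called genes with an entry, E-boxes were found in 3 of 7 lower and 0 of 3 higher genes, and D-boxes in 2 and 0. A match describes letters and is no evidence of binding. The 4 stretches below are shown because they belong to genes that fell, with the matches in capitals, 5′ to 3′ on the gene's strand. They lie at chr3:95882247-95882364 (Ciart, minus strand), chr11:69098763-69098948 (Per1, plus), chr15:81802526-81802571 (Tef, plus) and chr4:151044796-151044890 (Per3, minus), all upstream of the start site.
Ciart: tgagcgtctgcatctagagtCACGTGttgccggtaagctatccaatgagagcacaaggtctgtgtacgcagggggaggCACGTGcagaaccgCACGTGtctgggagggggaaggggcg
Per1: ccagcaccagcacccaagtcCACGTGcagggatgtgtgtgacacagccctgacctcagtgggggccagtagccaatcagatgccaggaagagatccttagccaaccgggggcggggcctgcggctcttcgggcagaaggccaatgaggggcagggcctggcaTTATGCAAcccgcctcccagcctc
Tef: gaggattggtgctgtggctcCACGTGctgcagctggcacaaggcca
Per3: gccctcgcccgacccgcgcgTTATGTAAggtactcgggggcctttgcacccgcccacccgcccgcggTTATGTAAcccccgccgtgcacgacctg
Ciart carried 3 E-boxes, Per1 an E-box and a D-box, Tef an E-box and Per3 a pair of D-boxes.

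Energy and lipid metabolism changed by small amounts. Respiratory chain genes fell in 9 of 38 and rose in 1 (median -0.33), with Ndufb8 at -0.76, Sdhc at -0.73 and Cycs at -0.60. These falls and rises were 23.7% and 2.6% of the list, against 8.34% and 15.8% of all genes tested. The single rise was Ndufa4, at 1.00 ± 0.20. No fall was called without unirradiated replicate 1; without unirradiated replicate 2, 4, without irradiated replicate 2 or 3, 2 and 3, and with irradiated replicate 3 alone 1; under quantile normalization 5. The median on each irradiated array was -0.34, -0.35 and -0.33. Glycolysis genes fell in 7 of 17 and rose in 3 (median -0.45): the hexokinases Hk2 and Hk1 fell by 1.21 and 1.01 and the glucose transporter Slc2a1 by 1.21, whereas Slc2a3, the transporter of leukocytes and neurons, rose by 1.49 and Pfkfb3 by 1.27. None of the 3 rises was called under quantile normalization or without unirradiated replicate 1 or 2 or irradiated replicate 2 or 3. There were 3 falls without unirradiated replicate 1 or with irradiated replicate 3 alone. Cholesterol and fatty acid synthesis genes fell in 7 of 21 and rose in 1, with Hmgcs1 at -1.01 and Sqle at -0.81. The rise was in Scd1, the desaturase of fat and sebaceous cells (10.75 and 10.68 against 14.82, 13.76 and 13.6). Of those 7 falls, 0 were called without unirradiated replicate 1, 1 without unirradiated replicate 2, irradiated replicate 2 or irradiated replicate 3, 3 under quantile normalization, and 4 with irradiated replicate 3 alone; in male-pattern knockout arrays the list median was 0.14.

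Xenobiotic metabolism genes fell in 8 of 38 and rose in 7 (median -0.50), that is 21.1% and 18.4% against 8.34% and 15.8% of all genes tested, with falls in the drug efflux pump Abcb1a (1.73 ± 0.17) and the cytochrome Cyp3a13 (1.72 ± 0.16) and a rise in the glutathione transferase Gsta4 (2.49 ± 0.60). The rises numbered 3 without either unirradiated array or with irradiated replicate 3 alone. Retinoid genes rose in 9 of 21 and fell in 0 (median 1.37; 0.59 in male-pattern knockout arrays). Crabp2, which carries retinoic acid in skin and mesenchyme, went from 1.95 and 1.01 to 9.97, 9.49 and 8.6, and Aldh1a3, which makes retinoic acid, from 8.56 and 9.77 to 11.79, 12.42 and 12.18. Iron handling genes rose in 6 of 14 and fell in 1. The ferroxidase ceruloplasmin (Cp) rose by 3.07 ± 0.25 and the haem scavenger receptor Cd163 by 2.12, while Heph, the ferroxidase of the intestinal epithelium, fell by 1.06, a call lost without either unirradiated array or irradiated replicate 3. In arginine metabolism, 7 of 20 were higher and 2 lower. Arginase (Arg1) was at 0.55 and 2.56 without irradiation and at 11.14, 14.48 and 13.5 after it. The dimethylarginine-degrading enzymes ran apart, with Ddah2 at 1.56 and Ddah1 at -1.49; in male-pattern knockout arrays Ddah1 was at 1.72. Neither arginine fall was called without unirradiated replicate 1 or with irradiated replicate 3 alone. Of the arginine rises, 2 were left without unirradiated replicate 2 and 4 without irradiated replicate 2 or under quantile normalization, and of the xenobiotic falls 4 without unirradiated replicate 1 and 5 without irradiated replicate 2. With irradiated replicate 3 alone these counts were 2 and 5.

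Genes of the connective tissue matrix were higher across nearly every class of protein, and the 3 irradiated arrays lay close together. Fibrillar collagens rose in 6 of 7 tested and fell in 1 (median 1.50; 1.52 in male-pattern knockout arrays). Col3a1 lay at 12.75 and 12.55 against 14.15, 14.11 and 14.19, and Col1a2 at 11.14 and 11.42 against 13.44, 13.17 and 13.48. Col27a1, a collagen of cartilage and some epithelia, was the one that fell, by 0.57, a call lost without any 1 wild-type array and with irradiated replicate 3 alone. The small proteoglycans that bind collagen fibrils were higher for 6 of 8, with Lum at 9.32 and 9.29 against 13.18, 12.66 and 13.25. The groups did not overlap for any of these 3 genes, nor for 53.6% of all genes tested.

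Proteins that process and organise collagen changed with it. Collagen crosslinking and folding genes rose in 14 of 19 and fell in 0 (median 1.27), with the procollagen C-proteinase enhancer Pcolce at 1.88 ± 0.25, the collagen chaperone Serpinh1 at 1.80 and the lysyl oxidase Loxl1 at 1.61. Elastic fibre genes were higher for 12 of 14 (median 1.64), with Fbln5 at 2.48 ± 0.22 and elastin (Eln) at 1.37. Collagen VI and fibril-associated genes were higher for 6 of 9 and basement membrane genes for 11 of 18 with 1 lower; the vascular laminin Lama4 rose by 1.96 and Col4a1 by 1.21. Matricellular glycoproteins rose in 12 of 19 and fell in 1, among them Sparc at 2.0 and Tnc at 1.24. Matrix metalloproteinases and their inhibitors rose in 13 of 17 and fell in 0 (median 1.93). The macrophage elastase Mmp12 went from 3.72 and 4.9 to 9.31, 9.21 and 10.46. The stromelysin Mmp3 went from 4.46 and 6.06 to 10.12, 8.65 and 10.34. Of the 17, 8 were above the array median on no unirradiated array of either genotype. Without unirradiated replicate 1 the rises were 8 crosslinking, 5 elastic fibre, 5 basement membrane, 5 matricellular and 6 metalloproteinase genes. With irradiated replicate 3 alone they were 6, 5, 8, 4 and 7, with medians of 1.30, 1.63, 1.24, 1.31 and 1.97.

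**Figure D4:**
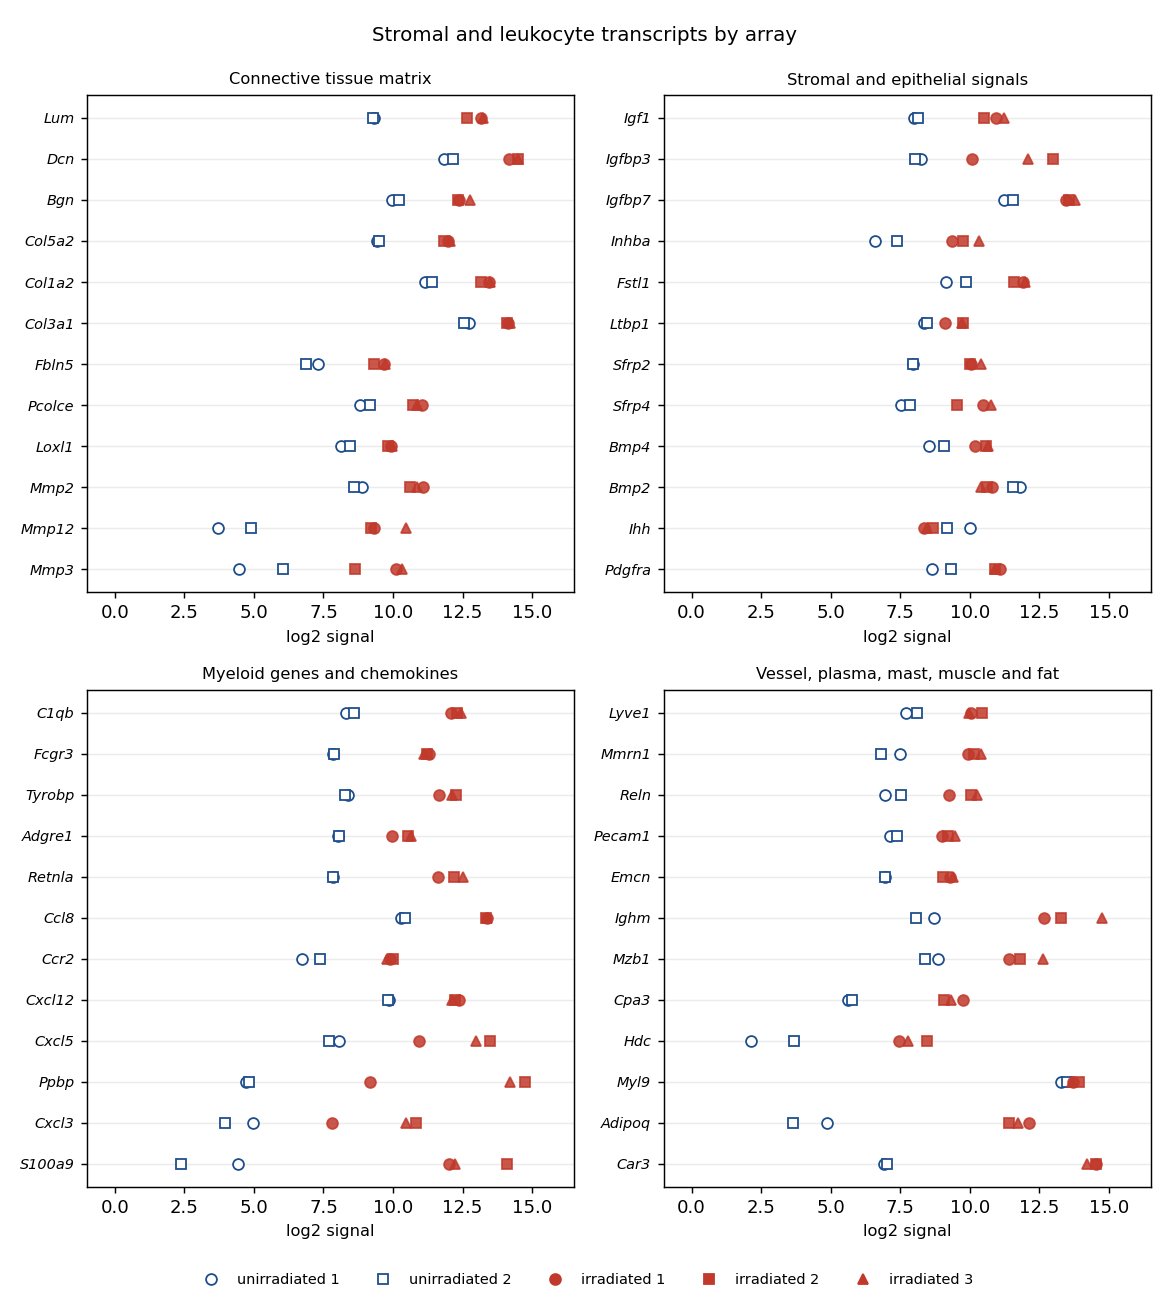
Log2 signals of matrix, signalling, leukocyte, vessel, muscle and fat genes on the 2 unirradiated (open) and 3 irradiated (filled) wild-type arrays. All 3 irradiated arrays lie close together for matrix genes such as Col3a1 (14.11 to 14.19), irradiated replicate 1 lies below the other two for Ppbp, Cxcl5 and Cxcl3, and the smooth muscle gene Myl9 was not called.

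Most calls in the IGF, TGF-beta and PDGF families were rises. In the IGF axis 6 of 15 were higher and 0 lower: Igf1 lay at 7.98 and 8.15 against 10.96, 10.52 and 11.24, and the binding proteins Igfbp3, Igfbp4, Igfbp5, Igfbp6 and Igfbp7 rose by 1.57 to 3.60. TGF-beta ligands, receptors and latency genes rose in 12 of 29 and fell in 1 (median 0.85). The activin subunit Inhba rose by 2.84 ± 0.33, the activin-binding Fstl1 by 2.31, Ltbp1, which stores latent TGF-beta in the matrix, by 1.11 and the receptor Tgfbr2 by 0.99. The ligands Tgfb2 (1.01) and Tgfb3 (0.85) did not pass the test, and Tgfb1 was too dim to be tested. In the PDGF family, 4 of 6 tested were higher: Pdgfc itself lay at 7.01 and 7.5 against 8.56, 8.75 and 8.67, Pdgfb rose by 1.11, and the receptors Pdgfra and Pdgfrb by 1.98 and 0.84. That count was 2 when unirradiated replicate 1, unirradiated replicate 2, irradiated replicate 2 or irradiated replicate 3 was left out or under quantile normalization, and 1 with irradiated replicate 3 alone. Of the EGF family, 0 of 12 were higher and 1 lower (Tgfa at -0.58, or 0.08 with the mean of its probe sets; not called without unirradiated replicate 2 or irradiated replicate 2 or 3). With irradiated replicate 3 alone 7 TGF-beta genes were higher.

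Of 25 Wnt, R-spondin, BMP and hedgehog genes tested, 11 were called higher and 2 lower (median 1.35; 0.74 in male-pattern knockout arrays). Among secreted Wnt antagonists, Sfrp4 went from 7.53 and 7.86 to 10.48, 9.54 and 10.77, and Sfrp2 from a mean of 7.95 to 10.14 ± 0.21 (SD, n = 3). Dkk3 rose by 1.45 and Frzb by 1.77, and the stromal ligands Bmp4, Wnt5a and Wnt4 rose by 1.66, 1.60 and 5.10. Grem1, a BMP antagonist of subepithelial fibroblasts, rose by 1.36. The 2 falls were in ligands that surface colonocytes make: Ihh had a mean of 9.59 ± 0.58 (SD, n = 2) against 8.36, 8.68 and 8.47, and Bmp2 lay at 11.82 and 11.55 against 10.79, 10.62 and 10.4. Both were also lower in male-pattern knockout arrays, by 1.12 and 1.30. The R-spondins that were tested were not called. Without unirradiated replicate 1, 6 genes were called higher and neither fall was called; with irradiated replicate 3 alone Bmp2 was the one fall called.

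Vessel genes were higher, lymphatic genes most uniformly. Of 9 lymphatic vessel genes tested, 8 were called higher and 0 lower (median 2.16; 1.72 in male-pattern knockout arrays). The hyaluronan receptor Lyve1 lay at 7.72 and 8.09 against 10.05, 10.44 and 9.98, Mmrn1 at 7.5 and 6.82 against 9.95, 10.15 and 10.41, and the VEGF receptor Flt4 at 7.0 and 6.82 against 8.93, 9.05 and 9.22. The groups did not overlap for any of these 3, nor for 53.6% of all genes tested. With irradiated replicate 3 alone the list median was 2.31. The VEGF ligand Vegfc rose by 1.11 ± 0.21. Prox1, the master regulator of lymphatic identity, was too dim to be tested (4.73 and 3.85 against 5.82, 6.36 and 6.86). Blood vessel genes rose in 19 of 26 and fell in 1, with Emcn at 2.29, Pecam1 at 1.98 and Cdh5 at 1.47; Vegfa (-0.29) and its receptor Kdr (-0.02) did not pass the test. With irradiated replicate 3 alone 11 were higher. Plasminogen and coagulation genes rose in 11 of 18 and fell in 0, among them thrombomodulin (Thbd) at 1.30 and the activator Plat at 1.39; that count was 7 without unirradiated replicate 1, without irradiated replicate 3, or with it alone.

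Macrophage genes were higher on all 3 irradiated arrays. Of 27 identity and scavenger genes tested, 21 were called higher and 0 lower (median 2.17; 2.11 in male-pattern knockout arrays), and 16 with irradiated replicate 3 alone. The macrophage surface protein Adgre1 lay at 8.01 and 8.05 against 9.95, 10.55 and 10.63, and Retnla, made by alternatively activated macrophages, at 7.85 and 7.85 against 11.63, 12.19 and 12.53. Fc receptors and their adaptors were higher for 15 of 17 (median 2.28); Fcgr3 rose by 3.36 ± 0.23 and the adaptors Tyrobp and Fcer1g by 3.68 and 3.50. Syk, the kinase that these adaptors recruit, was the one that fell, from 10.72 and 10.21 to 9.17, 9.05 and 9.63. Without unirradiated replicate 1 the Fc list had 9 rises and no fall, and with irradiated replicate 3 alone Syk was not called either. Complement genes were higher for 11 of 19, with C1qb at 3.82 and the inhibitor Serping1 at 2.51.

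Chemokines for monocytes and for neutrophils were higher, and irradiated replicate 1 stood below the other two for the neutrophil list members Ppbp, Cxcl5 and Cxcl3. Monocyte and eosinophil chemokine genes were higher for 10 of 11: Ccl8 lay at 10.3 and 10.44 against 13.39, 13.35 and 13.38, and the receptor Ccr2 at 6.73 and 7.39 against 9.88, 9.99 and 9.79. With irradiated replicate 3 alone 6 were called. Neutrophil chemokines, CXCL12 and their receptors were higher for 9 of 11 (median 2.76). Among the 11, 5 lay above the array median on no unirradiated array of either genotype. On irradiated replicates 1 to 3 the list median was 2.55, 2.96 and 2.61 relative to the unirradiated mean. The list mean on these arrays was 9.33, 10.66 and 10.65. Ppbp, a chemokine of platelets, lay at 4.72 and 4.83 against 9.17, 14.75 and 14.21, Cxcl5, of epithelium, at 8.06 and 7.71 against 10.95, 13.49 and 12.98, and Cxcl3 at 4.96 and 3.95 against 7.79, 10.81 and 10.46. Lactoferrin (Ltf), of neutrophil granules and gland epithelium, followed the same order at 9.2, 14.53 and 13.63 but was not called (8.68 and 7.78 without irradiation; adjusted p = 0.051). Cxcl12, which stromal cells make to retain leukocytes, was even across replicates, at 12.38, 12.22 and 12.13 against 9.87 and 9.81. Cxcl1 (0.42) was not called.

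Interleukin 1 and 6 genes rose and Tnf was not called. Of 23 genes tested, 12 were higher and 1 lower (median 1.09; 7 higher with irradiated replicate 3 alone). Il1b lay at 6.27 and 7.27 against 9.52, 11.11 and 11.57, and Il6 at 3.52 and 0.42 against 7.43, 5.71 and 7.94. Tnf overlapped between the groups (7.56 and 6.8 against 7.06, 7.76 and 7.63), and its receptor Tnfrsf1b fell by 0.79 ± 0.17, a call lost without unirradiated replicate 2. The signal-transducing receptors Il6st, Osmr and Il1r1 rose by 1.13, 1.61 and 2.61. Il33, an alarmin of barrier epithelium and stroma, lay at 1.10 and 6.21 against 10.19, 10.8 and 10.55; in male-pattern knockout arrays its difference was 1.12. Alarmins and acute-phase genes rose in 14 of 20 and fell in 0 (median 3.32). S100a9 lay at 4.44 and 2.36 against 12.02, 14.1 and 12.22. Of the 20, 9 were above the array median on no unirradiated array of either genotype. With irradiated replicate 3 alone the list median was 3.17. Saa1 (-0.54), at 14.41 or more on every wild-type array, and the antimicrobial lectins Reg3b (-0.60) and Reg3g (0.07) did not pass the test, while the goblet and Paneth cell products Retnlb and Ang4 rose by 3.81 and 7.41.

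T and NK cell genes were higher for 12 of 15 tested (median 1.89), with Gzma at 1.60 and Thy1 at 1.33. Thy1 was also listed as a fibroblast gene, so it does not mark T cells alone. Cd8a (0.00) was not called. Without unirradiated replicate 1 the count was 4, without irradiated replicate 2 it was 6, and with irradiated replicate 3 alone 4. B and plasma cell genes were higher for 10 of 14 (median 2.80), and 6 without unirradiated replicate 2. The heavy chain Ighm lay at 8.72 and 8.06 against 12.66, 13.28 and 14.75 and the plasma cell chaperone Mzb1 at 8.85 and 8.38 against 11.43, 11.8 and 12.64, with replicate 3 the highest for both; immunoglobulin genes can share signal. Mast cell genes were higher for 7 of 11, with carboxypeptidase Cpa3 at 5.62 and 5.75 against 9.75, 9.08 and 9.33; that count was 3 without unirradiated replicate 1 or with irradiated replicate 3 alone. Lymphocyte-attracting chemokines and receptors rose in 7 of 19 and fell in 1, and 4 without unirradiated replicate 1. Many members of the cell lists were above the array median on no unirradiated array of either genotype. These were 7 of 15 T and NK, 6 of 14 B and plasma and 7 of 11 mast cell genes. They entered the test through irradiated arrays alone. MHC class I processing genes were called for 1 of 17: H2-K1 and H2-D1 differed by 0.00 and 0.00 and B2m by 0.20, and the list median was -0.05. Only H2-M3, a nonclassical class I gene, rose, by 1.11 ± 0.16.

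Genes of DNA repair and of the cell cycle showed few differences at 8 weeks, while p53 targets were called about as often as genes at large. Of 27 p53 targets tested, 5 were higher and 3 lower (median 0.04), that is 29.6% called against 24.1% of all genes tested. Cdkn1a, the cell cycle inhibitor that p53 induces, lay at 13.42 and 13.27 against 11.88, 11.87 and 11.65, and Gadd45a and Pmaip1 fell by 1.57 and 0.89. The p53 targets Plk2, Phlda3, Sesn1, Sesn2 and Eda2r rose by 0.93 to 3.39, and Mdm2 (-0.10) was not called. The 5 rises became 3 without unirradiated replicate 2 or irradiated replicate 2 or 3, and 2 with irradiated replicate 3 alone. DNA damage signalling and repair genes were called for 1 of 31, Xpa at 1.16 ± 0.23, which had -0.33 in male-pattern knockout arrays. Cell cycle and replication genes were called for 0 of 28 in limma (0 at an unadjusted p under 0.05), with a median of 0.10. Mcm3 (-0.61), Aurka (0.34) and Rrm1 (0.43) had the smallest p, at adjusted values of 0.15, 0.16 and 0.22. Among cell cycle inhibitors and lamins 4 of 21 were higher and 1 lower, that is 23.8% called, near the 24.1% of all genes tested. Cdkn2c and Cdkn2d rose by 0.87 and 1.10, and Cdkn2a was too dim to be tested. The rises numbered 2 without unirradiated replicate 1 and 1 without unirradiated replicate 2. With irradiated replicate 3 alone the list median was 0.09. The unfolded protein response had 0 of 21 higher and 1 lower (Herpud1 at -0.65, called neither under quantile normalization nor without unirradiated replicate 1 or 2 or irradiated replicate 1 or 3).

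The muscle wall showed no called difference, and fat genes rose. Smooth muscle contractile genes were called for 0 of 18 in limma (3 at an unadjusted p under 0.05), with a median of 0.06, which turned to -0.35 with the sex covariate. Acta2 lay at 14.48 and 14.4 against 14.38, 14.58 and 14.61 and Myh11 at 12.67 and 13.13 against 12.91, 12.87 and 12.93, so the groups overlapped for both. Myl9 (0.40) and Hspb6 (1.46) had adjusted p of 0.087 and 0.069. Enteric neuron and glia genes were called higher for 1 of 15, the neuropeptide Vip at 1.29, which was lost without unirradiated replicate 1 or irradiated replicate 2 or 3. Adipocyte genes rose in 8 of 14 and fell in 1 (median 3.42; 1.52 in male-pattern knockout arrays, and 5 higher with irradiated replicate 3 alone). Their mean over 15 genes was 6.78 and 6.64 against 10.38, 9.50 and 9.19. Adiponectin (Adipoq) lay at 4.86 and 3.63 against 12.14, 11.4 and 11.72 and the lipase Lpl at 7.46 and 7.15 against 13.18, 12.89 and 12.21. Cidea, of brown and sebaceous fat, separated the replicates at 10.96, 8.88 and 5.52. Pparg, the fat cell regulator that colonocytes also express, was the one that fell, by 1.76 ± 0.36, a call lost without unirradiated replicate 2.

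Few genes were called for a different irradiation effect in wild type than in knockout. By limma's interaction 26 of 12568 genes, or 0.207%, were called at an adjusted p under 0.05. In the same fit 1311 genes had an unadjusted p under 0.05. With groups this small, a gene that was not called is not shown to have had equal effects. Car3, a carbonic anhydrase of fat and muscle, had the smallest p: in wild type it went from 6.91 and 7.02 to 14.55, 14.53 and 14.23, and its rise of 7.47 ± 0.23 exceeded that in knockout by 5.32 ± 0.33 (adjusted p = 0.0003). The antigen presentation genes Cd74, H2-Ab1, H2-Eb1 and H2-Aa overlapped between irradiated and unirradiated wild-type arrays, with differences of -0.07, 0.03, 0.30 and -0.05, and their effect in wild type minus that in knockout was -2.60, -3.13, -2.59 and -2.24. Ccl8 and Cxcl9 rose in wild type by 3.0 and 3.19, with an interaction of -1.76 and -3.41. Tnfrsf1b fell in wild type while its difference in male-pattern knockout arrays was 1.13, an interaction of -1.88. All 3 irradiated wild-type arrays but only 1 of 3 irradiated knockout arrays had the female sex pattern. With the sex pattern as a covariate 4 genes kept an interaction instead of 26, among them Car3 (5.21), Ccl8 (-1.95) and H2-Eb1 (-2.49) of these 8.

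**Figure D5:**
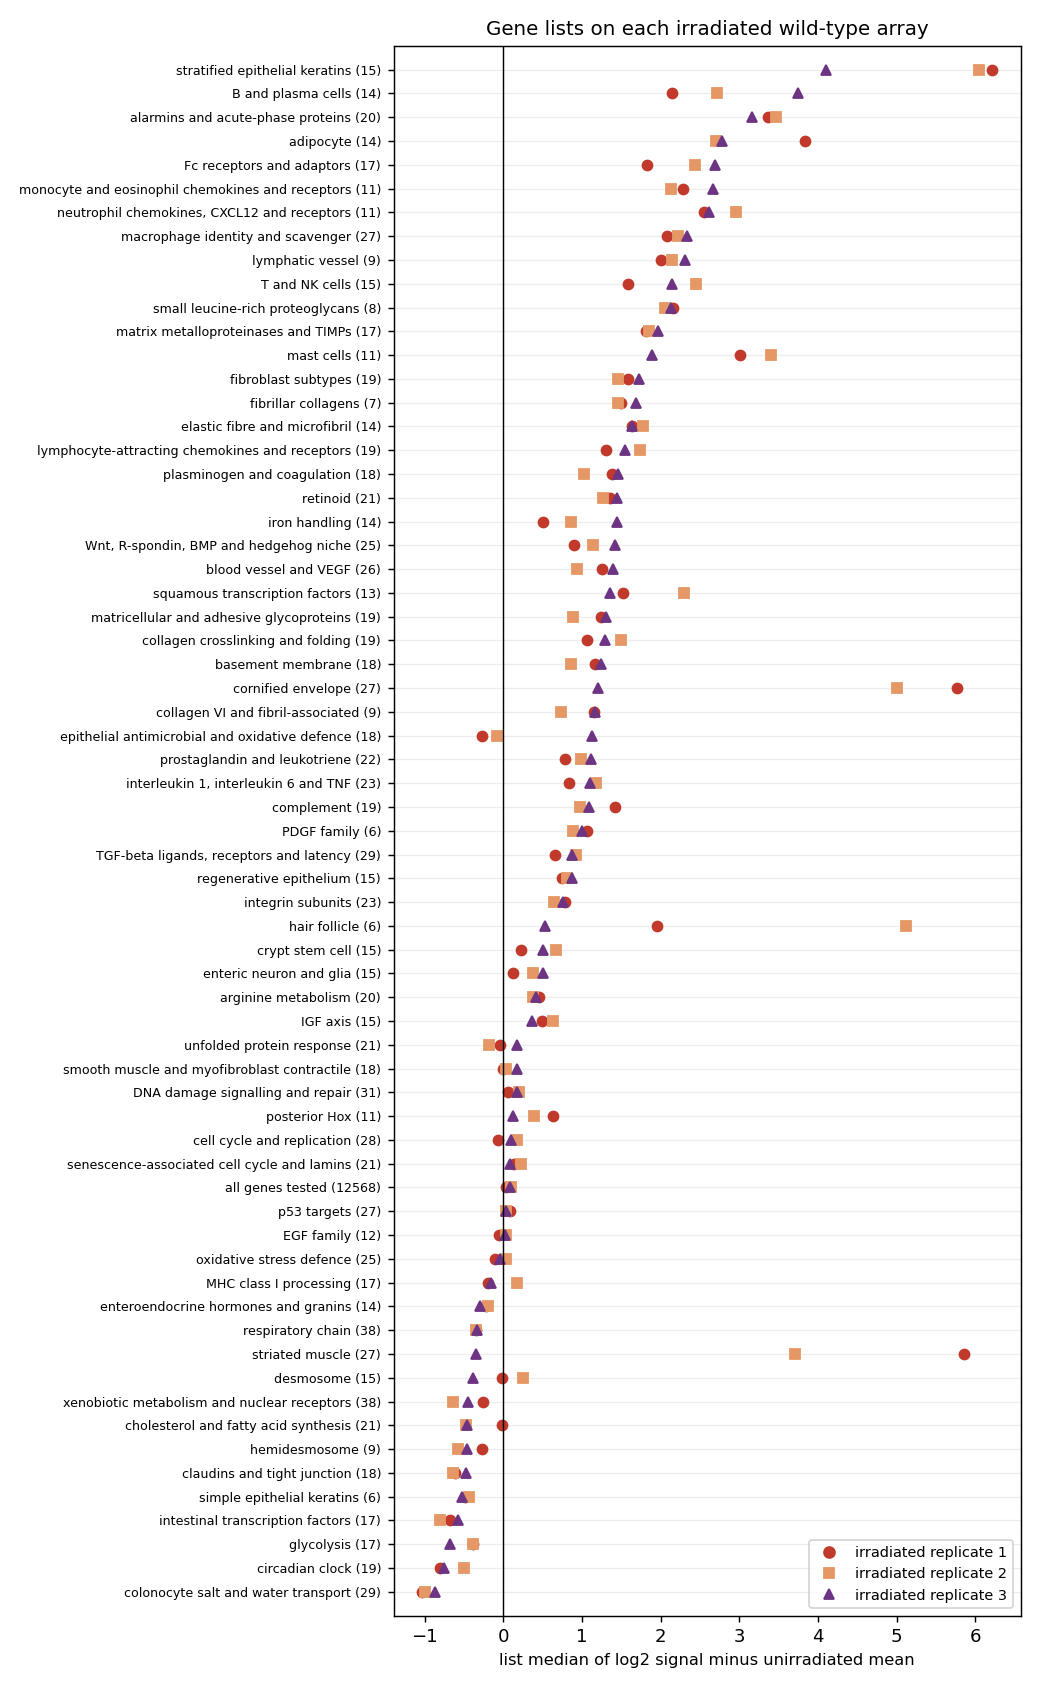
For each gene list with at least 6 genes tested (number in brackets), the points give the median difference in log2 signal between 1 irradiated wild-type array and the mean of the 2 unirradiated ones. The 3 replicates lie close together for matrix, macrophage, lymphatic and colonocyte transport lists and separate for striated muscle (5.85, 3.71 and -0.34), cornified envelope (5.76, 5.00 and 1.20) and hair follicle genes.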

How the data were processed

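Total RNA from 1 tissue sample per array was measured on 10 arrays; per the labels' protocols it was isolated with Trizol and hybridised as biotin-labelled cRNA. MAS5 made the signals, per the submitters' processing notes, which give no version. The authors' deposited values are log2 signals: after raising 2 to each value, the mean without the outer 2% of probe sets at either end came to 500 for all arrays. They ran from -4.24 to 15.79 and were used without further normalization. No detection calls were used.

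Of 45101 probe sets, 64 were controls, 34945 had 1 gene, 932 several and 9160 none; 34741 probe sets took their symbol from the RefSeq gene table of GRCm38.p6. The brightest probe set of a gene was kept, and genes that exceeded the array's median on 2 or more arrays entered a limma fit (version 3.58.1, R 4.3.3; group means over all 10 arrays, 6 residual degrees of freedom, variance trend, Benjamini-Hochberg adjustment at 0.05). The fit was tested on simulated arrays with 200 changed genes. "Male-pattern knockout arrays" give plain mean differences, without a test. Values with a single irradiated array assume that it varies like the other groups.

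Lists of genes by function or cell type are described by counts and medians, without a test of their own. The members, lists and rules were chosen with earlier results of these data known. Named were the 12 largest rises and falls with groups apart and the lower group above the array median, up to 6 called members per list (3 by smallest p where none was called), and other list members by their role; the genes of epidermal differentiation were chosen after their values were seen. Alternatives were quantile normalization, pseudocounts of 16 and 64, other filters, no trend, array weights, other probe set rules, a minimum of 2-fold, a replicate block, wild-type arrays only, a sex covariate and leaving out each array. Keeping only irradiated replicate 3 was added after seeing the data.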

Additional observations from a re-analysis of the deposited data

Results flagged for a closer look

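The irradiation effect in wild type differed from that in knockout, by limma's interaction at an adjusted p under 0.05, for 8 genes named above. In log2 units, wild type minus knockout, the difference was 5.32 for Car3, of fat and muscle. For the antigen presentation genes it was -2.59 for H2-Eb1, -2.60 for Cd74, -3.13 for H2-Ab1 and -2.24 for H2-Aa. Among signalling genes it was -1.76 for the chemokine Ccl8, -3.41 for the chemokine Cxcl9 and -1.88 for the receptor Tnfrsf1b. All 3 irradiated wild-type arrays and 1 of 3 irradiated knockout arrays had the female sex pattern. With that pattern as a covariate limma called 4 interactions instead of 26, and 3 of these 8 genes: Car3, Ccl8 and H2-Eb1. With the replicate block it called 3, of these 8 Car3 alone. Groups of 2 and 3 arrays are too small for a search for single outlying arrays.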

How the results depend on the processing

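In place of 3028 genes called in wild type (1980 higher, 1048 lower), limma called 4870 of 25883 probe sets (3188 and 1682) with every probe set tested, 308 genes (300 and 8) at a minimum of 2-fold, 16 (15 and 1) with a sex covariate, and 989 (741 and 248) with only irradiated replicate 3, an alternative chosen after seeing the data. With a single irradiated array the array is assumed to vary like the other groups. Leaving out 1 array gave 1327 to 3475 calls (978 to 2158 higher, 349 to 1317 lower); the fewest came without unirradiated replicate 1, and 1793 without irradiated replicate 2. The labels do not say whether equal replicate numbers pair the arrays. The 2 unirradiated wild-type arrays deviate from their mean as mirror images. Correlations of deviations at equal numbers (-0.047 and -0.016) therefore cannot decide it. The replicate block gave 1995 calls, 585 of them lower. Quantile normalization called 1501 higher and 1053 lower (58.8% higher, 65.4% otherwise) and moved the median of all genes from 0.07 to -0.02. The 26 calls for the difference between genotypes became 16 with a pseudocount of 64, 10 without a trend, 49 probe sets with every probe set tested, 3 at a minimum of 2-fold, 3 with the replicate block, 4 with the sex covariate, 60 with irradiated replicate 3 alone and 14 to 35 without 1 array. Of 217 named genes that were called, 1 changed sign in any setting with 1 probe set or mean per gene: Tgfa, at 0.08 with the mean of probe sets. Of 42 named but not called, 20 did. The causes were not tested. No detection calls were used, so genes near the array median are less certain.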

Other observations

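Integrin calls went both ways. The leukocyte subunits Itgb2, Itgal, Itgam and Itgax rose by 3.68, 2.64, 3.27 and 2.26, and the epithelial subunits Itgb6, Itga3, Itgb4 and Itga6 fell by 1.06, 0.79, 0.74 and 0.58. Over the list 11 of 23 tested were higher and 4 lower (median 0.67). There were 6 rises without unirradiated replicate 1, without irradiated replicate 2, or with irradiated replicate 3 alone. The falls numbered 2, 1 and 0 in those same settings and 0 without unirradiated replicate 2. With the sex pattern as a covariate limma called 0 members of this list and the next 3 lists at an adjusted p of 0.05, and 16 of all genes tested, of which 1497 had an unadjusted p under 0.05.

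Genes of leukotriene synthesis rose and the prostaglandin importer Slco2a1 fell by 1.54. The 5-lipoxygenase activating protein Alox5ap lay at 8.13 and 8.03 against 10.41, 10.97 and 10.53, and the leukotriene synthase Ltc4s rose by 2.48. The inducible cyclooxygenase Ptgs2 lay at 6.32 and 7.01 against 8.87, 7.18 and 9.44, with irradiated replicate 2 close to the unirradiated arrays. In all 8 of 22 were higher and 2 lower (median 1.04); 2 were higher without unirradiated replicate 1, 5 without unirradiated replicate 2 or under quantile normalization, and 3 with irradiated replicate 3 alone. The falls numbered 0 without unirradiated replicate 1 or with irradiated replicate 3 alone, and 1 without irradiated replicate 2 or 3.

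Among antioxidant genes, secreted and endoplasmic reticulum peroxidases were higher (Gpx8 2.27, Gpx7 1.42, Prdx4 0.97, Gpx3 0.72), and targets of the stress regulator Nrf2 were lower (Srxn1 -0.92, Gclc -0.66) or, for Nqo1 at -0.21 and Gclm at -0.01, not called; Hmox1, another such target, rose by 2.04. The list had 7 of 25 higher and 3 lower (median -0.01). That is 28.0% and 12.0%, against 15.8% and 8.34% of all genes tested. Its rises numbered 2 without unirradiated replicate 1, 4 without unirradiated replicate 2 or irradiated replicate 3, and 1 with irradiated replicate 3 alone. Its falls numbered 0 without either unirradiated array or with irradiated replicate 3 alone, and 1 under quantile normalization or without any 1 irradiated array.

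Among posterior homeobox genes, which record position along the body axis, Hoxd8 rose from 6.48 and 6.15 to 8.92, 8.87 and 8.54. Hoxc10 rose from 1.57 and 2.35 to 6.88, 6.12 and 4.99, while Hoxb13, of the distal colon, fell by 0.88. In male-pattern knockout arrays these differences were 1.07, 1.89 and -1.20. Over the list 27.3% were called higher and 9.1% lower, against 15.8% and 8.34% of all genes tested. The list had 3 of 11 higher and 1 lower; 1 was higher without unirradiated replicate 1, irradiated replicate 1 or irradiated replicate 2, or with irradiated replicate 3 alone. The fall was lost without unirradiated replicate 1, irradiated replicate 2 or irradiated replicate 3, and with irradiated replicate 3 alone.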
